A study of Rattus norvegicus with 24 samples.

Results

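The interaction of a first methamphetamine (METH) injection with a later one was measured as the difference between 2 challenge effects, (MM minus MS) minus (SM minus SS), on all 24 arrays of the series. The first letter names the first injection and the second letter the second injection, with M for METH and S for saline. Male Sprague-Dawley rats were given METH (10 mg/kg) and a month later METH (2.5 mg/kg) in group MM (7 arrays), METH (10 mg/kg) and then saline in group MS (7 arrays), saline and then METH (2.5 mg/kg) in group SM (6 arrays), and saline at both times in group SS (4 arrays). All rats were euthanized 2 h after the second injection. The methods put the age of the rats at 8 to 10 weeks, but the labels give a higher starting weight than the methods do. The labels name the tissue as nucleus accumbens (NAc) and its source as striatal tissue. They do not tie an array to a rat, so that the p-values measure only the spread between these samples. A positive interaction means that the difference between METH and saline challenge was more positive in METH-pretreated rats than in saline-pretreated rats.

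METH is a psychostimulant that releases dopamine from nerve terminals. In the NAc, the medium spiny neurons carry dopamine receptors, and their stimulation switches on immediate early genes such as Fos through cAMP, calcium and the transcription factor CREB. Repeated exposure to psychostimulants is known to leave some of these responses weaker and others stronger, which is why a challenge is given to animals with and without earlier drug. The corticotropin-releasing hormone gene Crh, the vasopressin gene Avp and the CART peptide gene Cartpt encode neuropeptides of stress and feeding circuits.

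Values are log2 signals of 1-colour Illumina BeadChips after background correction and quantile normalization. Of 22523 probes, 12951 were detected on at least 4 arrays and were tested, and 49.3% to 53.8% of all probes were detected on each array. The 24 arrays lie on 2 slides, with every group on both. In a principal component analysis the first component held 25.4% of the variance and separated the SS arrays, at -33.3 to -12.5, from the MM arrays, at 5.78 to 10.3. SM sample 11 reached -18.9, within the SS range. Limma's array weights, which are low for arrays that depart from their group, were 0.250 for SM sample 11, 0.320 for MS sample 3 and 0.340 for SS sample 1. The striatal neuron markers Drd1, Drd2, Ppp1r1b and Tac1 were detected on all 24 arrays.

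The interaction passed an adjusted p under 0.05 for 992 probes. It was positive for 538 (4.15% of the probes tested) and negative for 454 (3.51%). Of all probes tested, 87 (0.672%) had a positive and 83 (0.641%) a negative interaction of more than 1.8-fold at an unadjusted p under 0.01. In the deposited series matrix values, which are not scaled between arrays, 29 of the 159 calls were positive and 130 negative, with a median over all probes of -0.25. The challenge effects themselves differed in number. In SM against SS 787 probes were higher (6.08%) and 982 lower (7.58%), and in MM against MS 85 were higher (0.656%) and 61 lower (0.471%). For the first injection, 1139 probes were higher (8.79%) and 1195 lower (9.23%) in MS against SS, and 83 higher (0.641%) and 83 lower (0.641%) in MM against SM. The word effect here means a difference between groups, and its cause was not tested. The call count of MM against MS depended on single arrays, being 79, 93 and 73 without MM samples 4, 6 and 18, and 239 without SM sample 11. The count for the interaction was 564 without MM samples 6, 13, 18 and 24, a choice made after seeing the data. These are the MM arrays with the highest Ttr, and a fit with fewer MM arrays can by itself give a lower count. Without samples 1, 3 and 11 the interaction count was 2041. On slide 1 alone (12 arrays) 19 probes passed, and 1142 had an unadjusted p under 0.05. On slide 2 alone (12 arrays) 923 passed. Samples 1, 3 and 11, which had the lowest array weights, all lie on slide 1.

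Each of the 992 probes was given a shape from the 6 pairwise comparisons of the groups. The most common shape, with 599 probes (60.4%), was SS apart, in which MM, MS and SM each differed from SS in 1 direction and did not differ from each other at that threshold. MM stood apart in 4 probes, MS in 3 and SM in 2. The 2 challenge effects were both called with opposite signs in 12 probes, and the 2 pretreatment effects in 11. The other 361 fell under none of these. From the group means alone, with no test between groups, 597 probes had SS apart, 7 had MM apart and 66 had opposite challenge effects. The 4 SS arrays all lay above or all below the other 20 arrays in 560 of the probes tested (4.32%). The MM arrays did so in 18 probes (0.139%), the MS arrays in 7 and the SM arrays in 2. The groups differ in size and a smaller group lies apart more easily, so these counts cannot be compared directly. Among the 992 probes, 814 were also called in SM against SS and 49 in MM against MS. The absolute challenge effect was larger after saline than after METH in 892 of them.

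**Figure D1:**
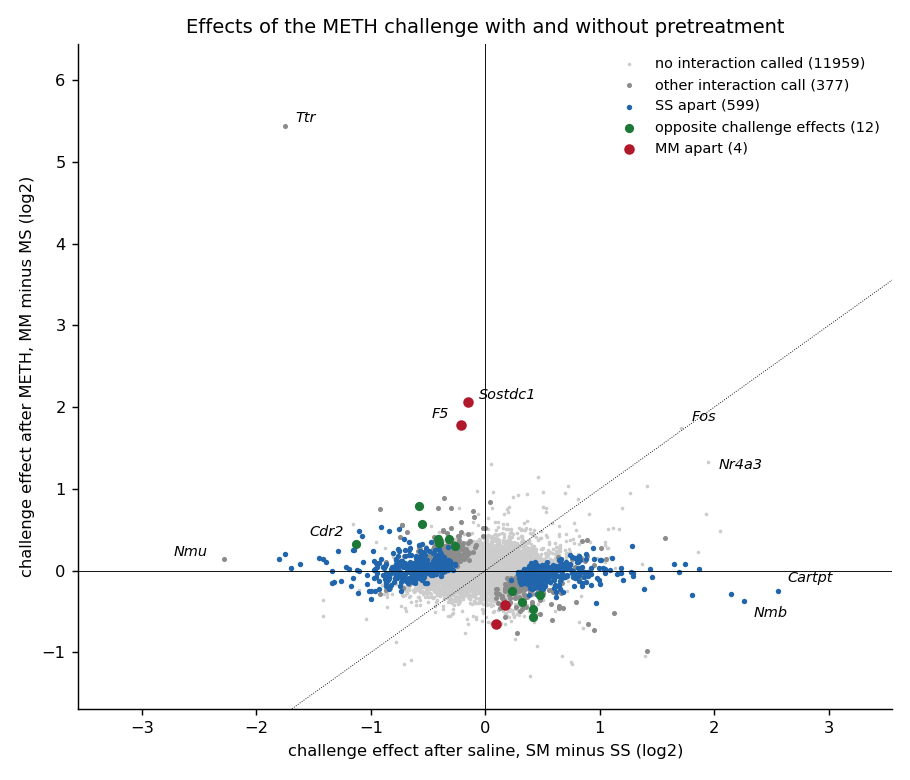
Challenge effect after METH (MM minus MS, log2, vertical axis) against the challenge effect after saline (SM minus SS, log2, horizontal axis) for 12951 probes, each 1 point, with the dotted line where both are equal. The 599 SS apart probes lie along the horizontal axis, the MM apart genes Sostdc1 and F5 lie near the vertical axis, Ttr lies far above all other probes and Fos lies on the dotted line.

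Cartpt, which encodes a neuropeptide of reward and feeding circuits, had the negative interaction of largest size among the named genes. Its promoter is shown because the interaction of Cartpt was the most negative and because CREB, a factor that dopamine receptor signalling activates, binds the palindrome TGACGTCA or its core TGACG. The 250 bases before the RefSeq start (GRCr8, chr2:32991236-32991485, minus strand) hold 1 copy of the palindrome. Capitals mark each TGACG and its reverse complement CGTCA, which overlap in the palindrome.
Cartpt: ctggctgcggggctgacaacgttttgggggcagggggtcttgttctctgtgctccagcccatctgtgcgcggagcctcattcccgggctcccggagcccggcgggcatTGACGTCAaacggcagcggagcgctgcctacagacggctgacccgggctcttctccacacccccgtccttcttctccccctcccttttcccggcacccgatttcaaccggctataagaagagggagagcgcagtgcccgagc
The palindrome stands in 1.59% of the 33469 RefSeq promoters of this length, and the core or its reverse in 18.2%. Among the 350 SS apart genes with a promoter sequence, 8 (2.29%) hold the palindrome, against 212 of 7391 tested genes (2.87%).

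Cartpt ranged from 9.60 to 10.57 in MM (median 9.98), from 9.78 to 10.65 in MS (median 10.27) and from 10.39 to 10.52 in SM (median 10.45), and was 8.32, 8.05, 7.70 and 7.51 in the 4 SS arrays. The SS arrays were lower than all others, and the other groups overlapped. Cartpt was 5.88-fold higher in SM than in SS (adjusted p = 6.32e-11), while MM minus MS was -0.25 (adjusted p = 0.469), which gives an interaction of -2.81 ± 0.22 (SE, adjusted p = 6.38e-09). Nmb, the gene of neuromedin B, a bombesin-like peptide, followed with an interaction of -2.63 ± 0.49 (adjusted p = 0.00112). Its median was 7.01 in MM, 7.39 in MS and 7.54 in SM, and the SS arrays held 5.09, 4.96, 4.90 and 5.38. The ranges of MM (6.02 to 7.43), MS (5.81 to 8.41) and SM (6.08 to 7.88) overlapped widely and none reached the SS range.

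Further named genes were low in SS. Hap1, a huntingtin-associated transport protein abundant in the hypothalamus, ranged from 9.57 to 9.99 in MM, 9.72 to 10.36 in MS and 9.65 to 9.95 in SM, and was 8.33, 8.37, 8.32 and 8.61 in SS. All 4 SS values lay under all the others, and the interaction was -1.62 ± 0.15 (adjusted p = 5.54e-08). Nnat, an imprinted membrane protein of developing and neuroendocrine neurons, ranged from 9.16 to 9.81 in MM, 9.22 to 9.95 in MS and 8.96 to 9.60 in SM, and was 8.11, 8.08, 7.77 and 8.28 in SS (interaction -1.36, adjusted p = 2.19e-05). Calb2, the calcium-binding protein calretinin, ranged from 6.57 to 7.05 in MM, 6.49 to 7.24 in MS and 6.38 to 6.96 in SM, and was 4.81, 5.53, 5.30 and 5.12 in SS (interaction -1.43, adjusted p = 1.62e-05). The SS arrays again stood under all 20 others in both genes. Second probes of Hap1 (-1.08) and Nnat (-1.71) were called in the same direction. Slc17a6, the vesicular glutamate transporter VGLUT2, averaged 8.95 ± 0.10 in MM, 8.87 ± 0.15 in MS, 8.38 ± 0.28 in SM and 6.64 ± 0.70 in SS, with an interaction of -1.66. Pnck, a calmodulin-dependent kinase, had an interaction of -1.85, Nell1, a secreted glycoprotein, -1.57, and Ap1s2, a subunit of the clathrin adaptor AP-1, -1.31. The imprinted ligand Dlk1 had -1.31 and the RNA-binding protein Ralyl -1.54, and all 5 were SS apart. Hfm1, a helicase of meiosis (-1.54), was not SS apart. It was 5.06, 4.81, 5.78 and 5.22 in SS and had a median of 5.38 in MM, 6.04 in MS and 6.22 in SM, so that MM overlapped SS.

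Other genes stood higher in SS than in the groups that had received METH. Sema7a, a membrane-anchored semaphorin, ranged from 7.86 to 8.40 in MM, 7.61 to 8.14 in MS and 7.61 to 8.02 in SM, and was 9.18, 9.56, 9.80 and 9.94 in SS. The SS arrays were all higher than the other 20, and the interaction was 1.95 ± 0.17 (adjusted p = 2.82e-08). Nmu, the gene of neuromedin U, ranged from 6.22 to 6.64 in MM, 6.24 to 6.75 in MS and 6.54 to 7.27 in SM, and was 9.45, 9.48, 8.57 and 9.23 in SS, with an interaction of 2.42 (adjusted p = 6.38e-09). Gfap, the intermediate filament of astrocytes, ranged from 10.58 to 10.94 in MM, 10.46 to 11.24 in MS and 10.10 to 10.58 in SM, and was 11.58, 11.79, 12.20 and 12.24 in SS (interaction 1.70, adjusted p = 4.4e-07). Astrocyte genes did not share this as a list, with 2 of 13 tested positive and 1 negative, against 4.78% and 3.36% of all genes. Their mean level was 10.19 to 10.50 in SS and 10.23 to 10.36 in MM. The astrocyte gene Slc1a3 was lower in SS (11.47 to 11.72) than in MM (11.73 to 12.19). Cryab, a small heat shock protein, ranged from 10.05 to 10.45 in MM, 9.50 to 10.10 in MS and 9.37 to 10.39 in SM, and was 10.75, 11.07, 11.34 and 11.13 in SS (interaction 1.50, adjusted p = 8.71e-06). In Nmu, Gfap and Cryab too, no MM, MS or SM array reached an SS value. Slc16a6 (1.73), a monocarboxylate transporter, Lxn (1.58), a carboxypeptidase inhibitor, and Lrrc10b (1.56) were SS apart as well. Cck, the cholecystokinin gene, had an interaction of 1.67 (adjusted p = 0.0397), but its SS values of 8.97, 9.58, 10.95 and 10.46 overlapped MM (8.08 to 10.07) and SM (8.17 to 9.86). Its call was lost in 12 of the 24 fits that left out 1 array, with values of 1.35 to 1.67 and adjusted p up to 0.119.

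**Figure D2:**
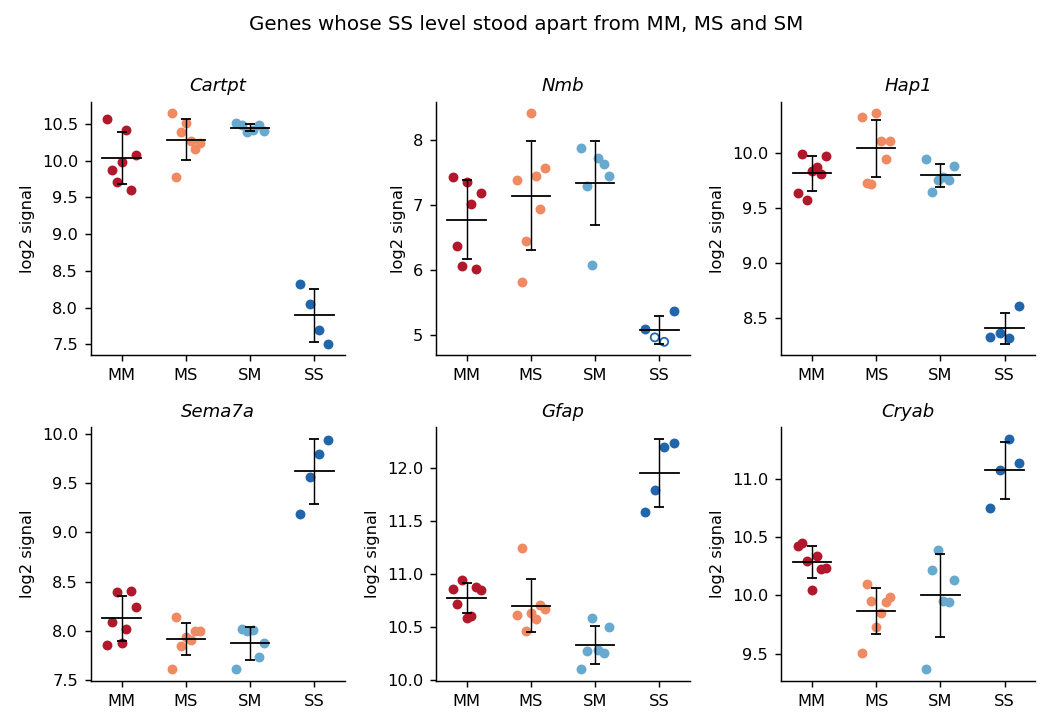
Log2 signal on each array (points) for 6 SS apart genes in MM (7), MS (7), SM (6) and SS (4), with lines at the mean and bars of 1 SD. Open points were not detected. Cartpt, Nmb and Hap1 were lower, and Sema7a, Gfap and Cryab higher, on every SS array than on all other arrays.

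Members of several marker lists also had a called interaction. Of 22 medium spiny neuron markers tested, 12 had a positive interaction and none a negative one (median 0.45), against 4.78% and 3.36% of all genes tested. In SM against SS 16 of the 22 were lower and none higher, against 764 and 574 of all 8891 genes tested. Rasd2, a striatal G protein, averaged 10.60 ± 0.15 in MM, 10.50 ± 0.31 in MS, 10.72 ± 0.21 in SM and 11.68 ± 0.13 in SS. Pde10a, the striatal phosphodiesterase, had an interaction of 0.93, the retinoid receptor Rxrg 0.72, the adenylyl cyclase Adcy5 0.76, the dopamine receptor Drd2 0.50, the DARPP-32 gene Ppp1r1b 0.49 and the substance P gene Tac1 0.58. The mean log2 level of this list was 9.92 to 10.17 in MM, 10.02 to 10.19 in MS, 10.09 to 10.27 in SM and 10.61 to 10.76 in SS, and all 22 were detected in every group. Of 14 hypothalamic markers, 4 had a negative interaction (Hap1, Nnat, Dlk1 and Zcchc12) and none a positive one (median -0.40). Their mean level was 6.80 to 7.05 in MM, 6.73 to 7.13 in MS, 6.73 to 6.89 in SM and 6.13 to 6.47 in SS, and only Pmch was detected on no SS array. Of 8 markers of the septum and basal forebrain 2 were negative, Tac3 (-0.81), the neurokinin B gene, and Nts (-0.63), the neurotensin gene. The Nts call was lost without MM sample 21, SM sample 17, SM sample 22, SS sample 15 or SS sample 20 (-0.61 to -0.52, adjusted p up to 0.0943), and also with median scaling (-0.73) and with no filter (adjusted p = 0.0583). The mean level of the 8 markers was 7.91 to 8.07 in MM, 7.67 to 8.14 in MS, 7.73 to 7.90 in SM and 7.26 to 7.52 in SS, and none was undetected.

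Of 16 oligodendrocyte genes 7 were positive and none negative (median 0.46), among them Cldn11 (0.84) and Mobp (0.85), components of myelin, Tf (0.61) and the transcription factor Sox10 (0.56). Their mean level was 9.20 to 9.43 in MM, 9.21 to 9.50 in MS, 8.96 to 9.28 in SM and 9.51 to 9.66 in SS. Of 10 cortical markers 5 were positive and none negative, including Nrgn (0.86), Emx2 (0.64) and Fezf2 (0.64), with a mean level of 6.75 to 7.22 in MM, 6.52 to 6.74 in MS, 6.76 to 7.09 in SM and 7.09 to 7.56 in SS. The mean levels of the striatal and oligodendrocyte lists were thus higher, and those of the hypothalamic and septal lists lower, on every SS array than on all others, while the cortical list overlapped. These lists were not alone in this. The mean level of thalamic genes was 5.58 to 5.83 in SS and that of synaptic vesicle genes 7.97 to 8.00. Both were lower on every SS array than on all others. The mean of dopamine signalling genes (9.69 to 9.78) was higher. Single members differed. In SM against SS, 2 of 9 thalamic genes were higher and 2 lower. The thalamic marker Synpo2 was higher on every SS array (6.73 to 7.15) than on all others. Of 17 synaptic vesicle genes 5 were higher and 1 lower, and of 14 dopamine signalling genes 2 and 5. The numbers over all 8891 genes tested were 574 and 764. The part of the makeup of the dissected tissue in the SS apart shape was not tested, and in bulk tissue fewer cells of a type and less RNA per cell cannot be told apart. Of 25 ribosomal protein genes and 17 respiratory chain genes, none had a called interaction. Of all genes tested, 4.78% had a positive and 3.36% a negative call, so lists of this size would hold few. With samples 1, 3 and 11 left out, a check of the lists chosen after seeing the data, 11 medium spiny neuron markers and 9 oligodendrocyte genes were positive and 4 hypothalamic markers negative. In the series matrix values 1, 0 and 5 of them were called.

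**Figure D3:**
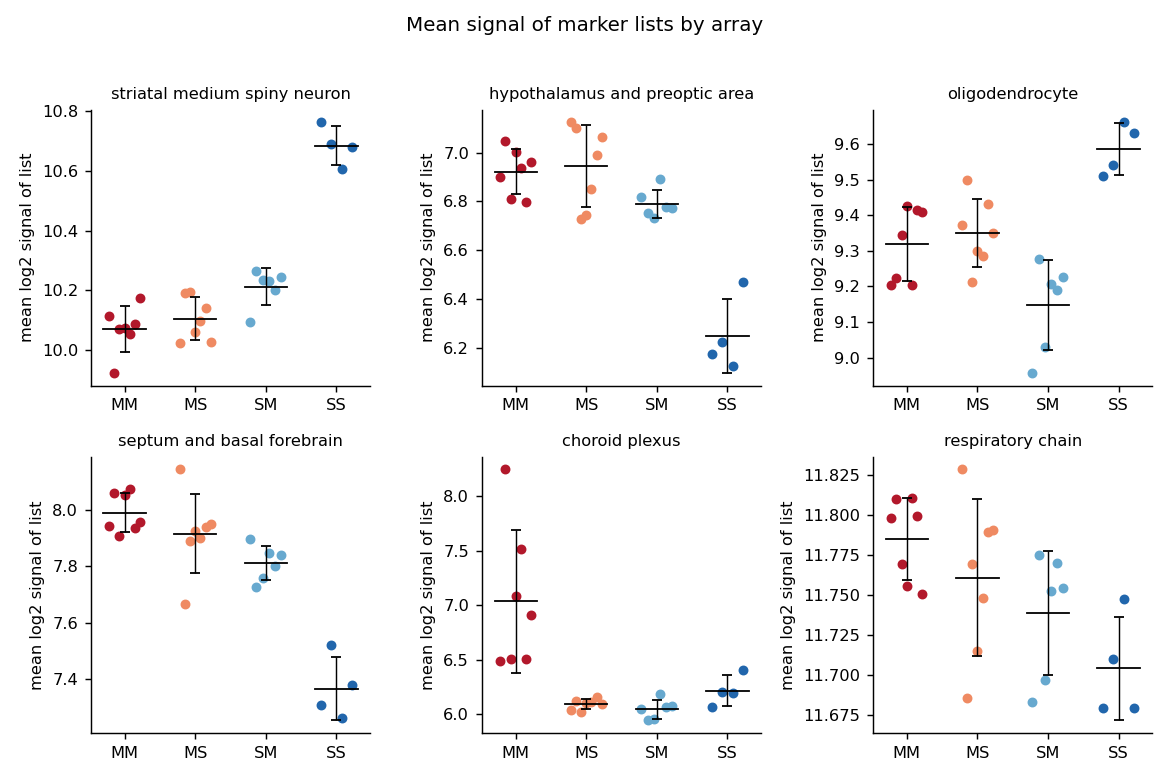
Mean log2 signal of the tested members of 6 gene lists on each array (points) in MM, MS, SM and SS, with lines at the group mean and bars of 1 SD. The SS arrays are highest for medium spiny neuron and oligodendrocyte genes and lowest for the hypothalamic and septal lists, the MM arrays are highest for choroid plexus genes, and all arrays lie between 11.68 and 11.83 for the respiratory chain. Sostdc1 and F5 entered the choroid plexus list only through MM, where they are high.

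Crh, Avp and Cartpt differed in the interaction. Crh ranged from 6.11 to 6.77 in MM (median 6.34), 5.38 to 6.22 in MS (median 5.91) and 4.98 to 6.01 in SM (median 5.80), and was 4.63, 4.81, 4.93 and 5.31 in SS. MM was the highest group and SS the lowest, with MS and SM between them and overlapping each other. Crh was 1.72-fold higher in SM than in SS (adjusted p = 0.00455), a log2 difference of 0.78 that ran from 0.42 to 2.00 under the alternatives, and 1.50-fold higher in MM than in MS (adjusted p = 0.0572). The 2 effects differed by -0.20 (95% interval -0.68 to 0.29, adjusted p = 0.708), so that no interaction was detected. The value was -0.94 with no background correction (adjusted p = 0.264) and -1.25 in the series matrix values (adjusted p = 0.245). The MM against MS value passed the threshold when any 1 of MM sample 13, MS sample 3, SM sample 11, SS sample 1 or SS sample 20 was left out (adjusted p 0.0172 to 0.049). Crh was detected on 7 of 7 MM, 7 of 7 MS, 5 of 6 SM and 2 of 4 SS arrays, and Nmb likewise on 2 of 4 SS arrays. Avp ranged from 6.22 to 7.60 in MM (median 6.88), 5.69 to 7.48 in MS (median 6.24) and 5.96 to 8.54 in SM (median 7.38), and was 4.54, 4.61, 5.03 and 6.41 in SS. SS sample 20 overlapped all the other groups. The Avp interaction was -1.57 (95% interval -2.72 to -0.42) and missed the threshold (adjusted p = 0.0854), which it passed without SS sample 20 (-2.00, adjusted p = 0.0273), SM sample 11 (-1.77, adjusted p = 0.0396) or SM sample 2 (-1.80, adjusted p = 0.0384). It also passed with array weights (-1.82, adjusted p = 0.0200), with no background correction (-3.47, adjusted p = 0.0443) and in the series matrix values (-3.84, adjusted p = 0.0397). Avp was detected on 2 of 4 SS arrays and on every other array. Mc4r, the melanocortin receptor on which feeding peptides act, was SS apart, at 7.75 ± 0.24 in MM, 7.47 ± 0.13 in MS, 7.53 ± 0.24 in SM and 6.59 ± 0.09 in SS. Of the 8 genes of this peptide system tested, Cartpt and Mc4r had a called interaction, both negative. A negative call was found for 3.36% of all genes tested. The vasopressin receptor gene Avpr1a (-0.17, adjusted p = 0.533) and Creb1 (0.18, adjusted p = 0.607) had no called interaction, and Avpr1b was detected on 1 array. Avpr1a was detected on 4 MM, 4 MS, 2 SM and no SS arrays, and with no background correction its interaction was called (-2.17, adjusted p = 0.0373).

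A few transcripts stood apart in MM, the group that received METH at both injections, and the largest of these are markers of the choroid plexus, the epithelium that secretes cerebrospinal fluid. Sostdc1, a secreted antagonist of BMP and Wnt signals, ranged from 5.22 to 9.24 in MM (median 6.39), 4.50 to 4.73 in MS and 4.54 to 4.72 in SM, and was 4.67, 4.63, 4.77 and 4.95 in SS. It was detected on all 7 MM arrays and on no other array. Its mean was at least 3.41-fold higher in MM than in MS (adjusted p = 0.00787), and the fitted interaction was 2.21 ± 0.63 (adjusted p = 0.0283). Sostdc1 passed the filter on dim probes only through MM, so the interaction is a value against groups at background, and it ran from 0.86 to 6.41 under the alternatives. Without SS sample 20 the adjusted p was 0.0589, at a value of 2.15. F5, coagulation factor V, ranged from 5.01 to 9.09 in MM, 4.53 to 4.85 in MS and 4.51 to 4.70 in SM, and was 4.77, 4.65, 4.98 and 4.81 in SS. Every MM array lay above every other array in both genes, and the MM arrays were widely spread. F5 was at least 2.85-fold higher in MM than in MS (adjusted p = 0.021). F5, detected on 7 MM arrays and 1 SS array, also passed the filter only through MM, and its interaction ran from 0.69 to 6.37 under the alternatives. The value of 1.99 (adjusted p = 0.0467) lost its call in 19 of the 24 fits that left out 1 array, with adjusted p up to 0.0852.

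Ttr, the thyroid hormone carrier transthyretin, which the choroid plexus makes in great amount, had the largest interaction of all, at 7.20 ± 0.84 (adjusted p = 3.06e-06). It was 8.65, 13.06, 8.67, 10.82, 11.92, 8.66 and 10.43 in the MM arrays, 4.63 to 5.04 in MS and 4.52 to 7.10 in SM, and 6.12, 6.67, 7.13 and 8.33 in SS. MM samples 6, 13, 18 and 24 were the highest, and the lowest MM array still lay above the highest SS array. Ttr was 43.4-fold higher in MM than in MS (adjusted p = 1.14e-06), where 4 of 7 arrays detected it, so that the size of the fold rests on signals near background. Over the alternatives the interaction ran from 5.54 to 10.21. Ttr was lower in MS than in SS (log2 -2.19, adjusted p = 0.0153). Of 16 choroid plexus genes tested, 5 had a positive interaction and none a negative one (median 0.70), namely Ttr, Sostdc1, F5, Enpp2 and Ace. Sostdc1 and F5 entered the list only through MM, where they are high. The count, median and mean level of the list are therefore not independent of MM, and no conclusion is drawn from them. Enpp2, the lysophospholipase autotaxin, averaged 12.07 ± 0.50 in MM, 11.59 ± 0.21 in MS, 11.46 ± 0.11 in SM and 11.83 ± 0.08 in SS (interaction 0.85, adjusted p = 0.0229). The mean level of the list was 6.49 to 8.25 in MM, 6.02 to 6.16 in MS, 5.94 to 6.19 in SM and 6.07 to 6.40 in SS. Col8a1, F5 and Sostdc1 were detected on no MS and no SM array, and Aqp1, Sostdc1 and Trpv4 on no SS array. With MM samples 6, 13, 18 and 24 left out, 6 of the 16 were positive and 1 negative. Ace, angiotensin-converting enzyme, did not follow MM. It ranged from 5.97 to 6.90 in MM, 5.99 to 6.32 in MS and 5.90 to 6.27 in SM, and was 7.38, 7.54, 7.38 and 8.02 in SS, which made it SS apart. The growth factor gene Igf2 was higher in MM than in MS (log2 0.77, adjusted p = 0.0186), as was Igfbp2 (1.15, adjusted p = 0.00715), but their interactions of 0.71 (adjusted p = 0.097) and 0.69 (adjusted p = 0.253) were not called. Of 13 genes of the meninges none had a called interaction and 3 were higher in MM than in MS, against 70 of all 8891 genes tested. The mean level of the list was 6.82 to 7.34 in MM, 6.62 to 6.81 in MS, 6.53 to 6.66 in SM and 6.28 to 6.62 in SS. The part of choroid plexus tissue in the MM arrays was not tested.

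**Figure D4:**
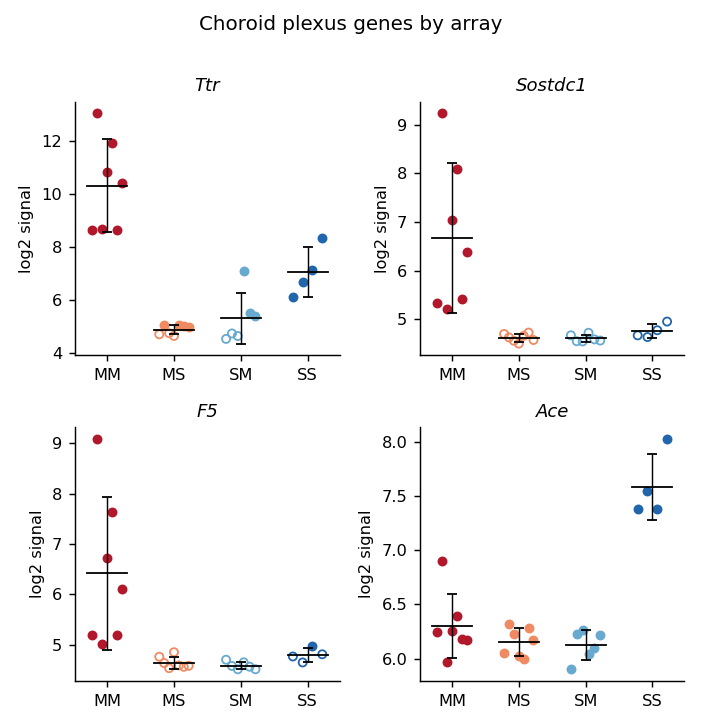
Log2 signal on each array (points) of 4 choroid plexus genes in MM (7), MS (7), SM (6) and SS (4), with lines at the mean and bars of 1 SD. Open points were not detected. Ttr, Sostdc1 and F5 were highest on the MM arrays, with a wide spread, whereas Ace was highest on the SS arrays.

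The remaining MM apart genes, Smoc2 and Srrm2, were lower in MM. Smoc2, a matrix protein, ranged from 5.53 to 6.22 in MM, 6.27 to 6.76 in MS and 6.03 to 6.88 in SM, and was 6.27, 6.70, 6.15 and 6.57 in SS. The MM range overlapped the SM and SS ranges, and the interaction was -0.74 ± 0.20 (adjusted p = 0.0219), with 0.0645 without SS sample 15, at -0.66. Srrm2, a splicing factor, averaged 10.53 ± 0.08 in MM, 10.95 ± 0.09 in MS, 10.97 ± 0.19 in SM and 10.80 ± 0.06 in SS (interaction -0.59, adjusted p = 9.2e-04).

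In 12 probes, 8 of them with a gene name, the challenge effects after saline and after METH had opposite directions. Cdr2, an antigen of cerebellar degeneration, ranged from 6.85 to 7.33 in MM, 6.48 to 6.74 in MS and 6.42 to 6.95 in SM, and was 7.70, 7.98, 7.93 and 7.93 in SS. All MM arrays were higher than all MS arrays and all SM arrays lower than all SS arrays. The challenge effect was 0.33 in MM against MS (adjusted p = 0.042) and -1.13 in SM against SS (adjusted p = 1.04e-08). Acer2, an alkaline ceramidase, ranged from 7.87 to 8.37 in MM, 6.65 to 7.86 in MS and 7.49 to 8.38 in SM, and was 8.25, 9.08, 8.45 and 8.46 in SS. Its effect was 0.79 after METH (adjusted p = 0.0106) and -0.58 after saline (adjusted p = 0.0452). Klf10, a zinc finger factor induced by TGF-beta, ranged from 6.14 to 6.57 in MM, 5.46 to 6.13 in MS and 6.46 to 6.98 in SM, and was 7.35, 7.70, 6.75 and 7.05 in SS. Its effect was 0.57 after METH (adjusted p = 0.0141) and -0.56 after saline (adjusted p = 0.01). Klf9, a zinc finger factor that glucocorticoids induce, ranged from 11.76 to 12.01 in MM, 11.27 to 11.74 in MS and 11.76 to 12.01 in SM, and was 12.26, 12.48, 12.37 and 12.15 in SS. Here MM and SM had the same range, MS lay under it and SS above it. Klf9 rose by 0.38 in MM against MS (adjusted p = 0.00903) and fell by 0.41 in SM against SS (adjusted p = 0.00285). In these 4 genes MS had the lowest mean and SS the highest, and the SM and SS arrays overlapped for Acer2 and Klf10.

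Of the other named genes of this shape, Rbms1, an RNA-binding protein (interaction 0.74), and Pdia4, a disulfide isomerase of the endoplasmic reticulum (0.56), moved in the direction of Klf9. Rbm3, a cold-induced RNA-binding protein (-0.89), and Ttc27 (-0.49) moved the other way. Rbm3 averaged 8.41 ± 0.17 in MM, 8.89 ± 0.14 in MS, 8.69 ± 0.20 in SM and 8.28 ± 0.34 in SS. The count of 12 probes rested on small effects and on single arrays. It was 3 without MM sample 18, 6 without MM sample 4 or SM sample 17, and 7 without MM sample 24, MS sample 12, SM sample 2, SM sample 22 or SS sample 8. The challenge effect of Cdr2 after METH lost its call in 13 of the 24 fits that left out 1 array (0.27 to 0.35), and that of Acer2 after saline in 14 (-0.62 to -0.41). That of Klf10 after saline was -0.39 without SS sample 8 (adjusted p = 0.0744).

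**Figure D5:**
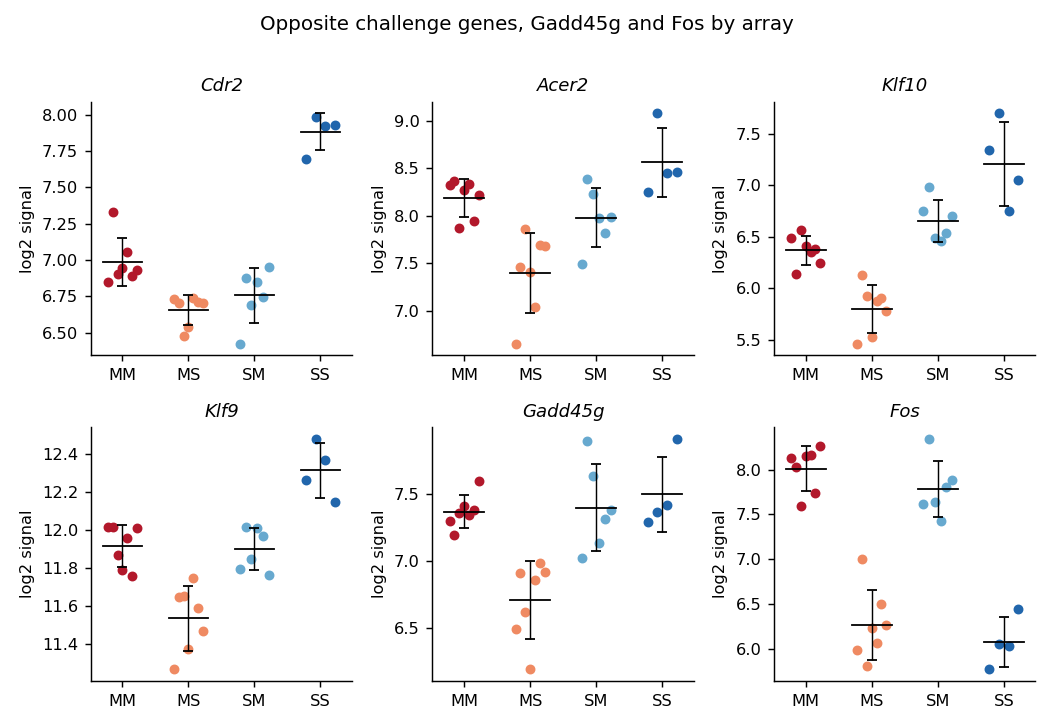
Log2 signal on each array (points) in MM (7), MS (7), SM (6) and SS (4), with lines at the mean and bars of 1 SD. For Cdr2, Acer2, Klf10 and Klf9 the MM mean lies above the MS mean and the SM mean below the SS mean, with SM and SS arrays overlapping for Acer2 and Klf10. Gadd45g is lowest in MS, and Fos is high in MM and SM.

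Klf9 was 1 of 14 glucocorticoid-responsive genes tested, of which 4 had a positive interaction and none a negative one (median 0.29). Over all genes tested, 4.78% had a positive and 3.36% a negative call. Sgk1, a kinase induced by glucocorticoids, averaged 11.20 ± 0.30 in MM, 10.44 ± 0.12 in MS, 10.95 ± 0.10 in SM and 11.25 ± 0.63 in SS (interaction 1.07, adjusted p = 0.0044). It rose by 0.77 in MM against MS (adjusted p = 0.00787), and SM minus SS was -0.30 (adjusted p = 0.305). Fkbp5, which binds and restrains the glucocorticoid receptor, averaged 9.93 ± 0.10 in MM, 9.64 ± 0.16 in MS, 10.00 ± 0.18 in SM and 10.31 ± 0.18 in SS (interaction 0.60, adjusted p = 0.00383). Errfi1, a feedback inhibitor of the EGF receptor, had 0.44 (adjusted p = 0.0154), and 0.35 without SS sample 8 (adjusted p = 0.0556). Across the list 5 genes were higher in MM than in MS and none lower, against 70 and 37 of all 8891 genes tested. In SM against SS 1 was higher and 2 lower, near the share over all genes (574 higher and 764 lower of 8891). With median scaling 2 interactions were positive and 1 negative, and in the series matrix values none was called, with 2 and 0 genes higher in MM than in MS. With MM samples 6, 13, 18 and 24 left out, 2 genes had a positive interaction and no gene passed in MM against MS. That fit holds fewer MM arrays.

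Of 18 genes of the unfolded protein response 6 had a positive interaction and none a negative one (median 0.38). They include the chaperones Hsp90b1 (0.55), Dnajc3 (0.55) and Creld2 (0.55, and 0.43 with an adjusted p of 0.0517 without SS sample 8) and Pdia4. In SM against SS, 6 of the 18 were lower and 1 higher, against 764 and 574 of all 8891 genes tested. With arrays scaled to 1 median, 1 gene of the 18 had a called interaction, and in the series matrix values none did. The interaction was positive for 4.78% and negative for 3.36% of all genes tested. Of 10 heat shock genes 2 were positive, Cryab and Hspb1. Hspb1 averaged 8.06 ± 0.63 in MM, 7.17 ± 0.32 in MS, 7.57 ± 0.42 in SM and 7.92 ± 0.32 in SS (interaction 1.25, adjusted p = 0.0231). Its adjusted p was 0.0527 without SS sample 8 (1.19) and 0.0592 without SS sample 15 (1.15). Bag3, a co-chaperone, rose by 0.69 in MM against MS (adjusted p = 0.00418) and had an interaction of 0.52 (adjusted p = 0.104), which was called without SS sample 1 (0.63, adjusted p = 0.0406) and without samples 1, 3 and 11 (0.56, adjusted p = 0.0290).

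Immediate early genes are switched on in neurons within minutes of stimulation. Of 21 tested, 8 were higher and 2 lower in SM than in SS, and 10 were higher and none lower in MM than in MS. The 10 became 2 with MM samples 6, 13, 18 and 24 left out, a fit with fewer MM arrays. Of all 8891 genes tested, 574 were higher and 764 lower in SM than in SS, and 70 higher and 37 lower in MM than in MS. Fos, named here after its values were seen, ranged from 7.59 to 8.26 in MM (median 8.13), 5.81 to 7.00 in MS (median 6.23) and 7.43 to 8.34 in SM (median 7.72), and was 5.77, 6.06, 6.03 and 6.44 in SS. Both METH-challenged groups lay above both saline-challenged groups with no overlap. Fos was 3.35-fold higher in MM than in MS (adjusted p = 2.42e-07) and 3.27-fold higher in SM than in SS (adjusted p = 4e-07), and the 2 log2 effects differed by 0.03 (95% interval -0.47 to 0.53, adjusted p = 0.959). Nr4a3, an orphan nuclear receptor, averaged 8.35 ± 0.35 in MM, 7.02 ± 0.37 in MS, 8.71 ± 0.27 in SM and 6.77 ± 0.58 in SS. Its interaction was -0.61 (95% interval -1.21 to -0.01, adjusted p = 0.224) and was called without SS sample 1 (-0.85, adjusted p = 0.0459) and without samples 1, 3 and 11 (-0.93, adjusted p = 0.0265). The rise of Nr4a3 in MM against MS was 1.33. With MM samples 6, 13, 18 and 24 left out it was 1.09 and not called (adjusted p = 0.0788). Junb (interaction -0.43, 95% interval -0.88 to 0.02), Egr4 (-0.32, -0.78 to 0.14) and Arc (0.31, -0.28 to 0.91) were called in both challenges and had no called interaction. Their rises in MM against MS were 0.77, 0.94 and 1.03. Without the same 4 MM samples they were 0.62, 0.71 and 0.91, and none was called. Arc after saline lost its call without SM sample 5, 17 or 22 or SS sample 1 or 15 (0.62 to 0.70). These 5 genes were chosen after their values were seen.

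The promoters of Junb and Egr4 are shown because both genes rose in both challenges. In the 250 bases before the start (GRCr8), Junb lies at chr19:40080876-40081125, plus strand, and Egr4 at chr4:119607818-119608067, minus strand. Capitals again mark TGACG and CGTCA.
Junb: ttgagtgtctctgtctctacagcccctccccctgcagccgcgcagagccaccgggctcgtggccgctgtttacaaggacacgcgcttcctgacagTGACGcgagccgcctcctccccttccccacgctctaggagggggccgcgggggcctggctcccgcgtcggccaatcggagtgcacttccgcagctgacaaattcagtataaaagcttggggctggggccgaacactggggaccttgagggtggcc
Egr4: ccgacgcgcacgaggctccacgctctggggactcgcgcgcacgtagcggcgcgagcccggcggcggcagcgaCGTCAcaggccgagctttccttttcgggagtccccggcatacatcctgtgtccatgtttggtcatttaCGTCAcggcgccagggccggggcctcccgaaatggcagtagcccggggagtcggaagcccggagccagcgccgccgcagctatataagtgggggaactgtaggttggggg
Junb holds the core once, 155 bases before the start, and Egr4 holds it 2 times, 178 and 110 bases before the start. Of the 16 named genes that rose in both challenges, 12 have a promoter sequence. The core stands in 6 of the 12 (50%), against 2052 of 7391 tested genes (27.8%), and the palindrome in none. These are matches of letters in a short window, and binding was not measured.

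The called interactions among immediate early genes were positive, in 5 of 21 genes (Klf10, Ier2, Nr4a2, Nptx2 and Ier5, which was named after its values were seen), with samples 1, 3 and 11 left out in 6, beside 2 negative ones. Over all genes tested, 4.78% had a positive call and 3.36% a negative one. In the series matrix values none of the 21 had a called interaction (median -0.08), and 1 was higher in MM than in MS. Nr4a2, a nuclear receptor of dopamine neurons, averaged 5.90 ± 0.33 in MM, 5.14 ± 0.17 in MS, 5.83 ± 0.25 in SM and 6.25 ± 0.71 in SS (interaction 1.18, adjusted p = 0.00761). It rose by 0.76 in MM against MS (adjusted p = 0.0262), and SM minus SS was -0.42 (adjusted p = 0.215). Ier2 (0.88) was SS apart. Nptx2, a synaptic pentraxin, had 0.81 (adjusted p = 0.026), with an adjusted p of 0.0621 without SS sample 8 (0.75) and 0.0847 without SS sample 15 (0.65). Crem, a CREB-family gene outside this list, was higher in MM than in MS (log2 0.73, adjusted p = 0.00224), with an interaction of 0.84 (adjusted p = 0.00625), and its second probe gave 0.48 (adjusted p = 0.0888). Over all probes, 42 were called in both challenges, 30 of them in the same direction, of which 19 rose. Only Kcnj16, a potassium channel subunit, and Camk1g, a calmodulin-dependent kinase, rose in both and also had a called interaction, of -0.49 and -0.51. The Kcnj16 interaction was -0.19 with an offset of 50 (adjusted p = 0.0822). For Camk1g it was -0.82 in the series matrix values (adjusted p = 0.0975). Without MM samples 6, 13, 18 and 24 the Camk1g interaction was -0.46 (adjusted p = 0.0910). Both calls were also lost on slide 1 alone. Igfbp6 (0.58 in MM against MS and 0.58 in SM against SS) and Cebpb (0.48 and 0.48) rose in both. The call of Cebpb was lost without MM sample 4, MM sample 18 or MS sample 23 in the first comparison (0.42 to 0.44) and without SS sample 15 in the second (0.40). These 4 genes were also chosen after their values were seen.

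MS stood apart in 3 probes and SM in 2. Gadd45g, a stress-induced protein linked to DNA demethylation, ranged from 7.20 to 7.60 in MM, 6.20 to 6.98 in MS and 7.03 to 7.89 in SM, and was 7.29, 7.37, 7.42 and 7.91 in SS. The MS arrays were all lower than all others. Its interaction was 0.75 ± 0.20 (adjusted p = 0.0195), and 0.62 without SS sample 20 (adjusted p = 0.0673). Blnk, an adaptor of B cell receptor signalling, ranged from 6.22 to 6.60 in MM, 5.70 to 6.09 in MS and 6.05 to 6.65 in SM, and was 6.20, 6.42, 6.55 and 6.28 in SS. SM overlapped MS at its low end, and the interaction of 0.52 (adjusted p = 0.022) became 0.46 (adjusted p = 0.0649) without SS sample 15. Ifi47, an interferon-induced GTPase chosen after its values were seen, was detected on 1 MM, 1 MS, 5 SM and 1 SS arrays and had a fitted interaction of -0.74 (adjusted p = 0.0165). It passed the filter on dim probes only through SM, and the other groups lay at background. The value was -3.10 with no background correction (adjusted p = 0.0899) and -3.15 in the series matrix values (adjusted p = 0.204). Of 11 genes of DNA methylation and demethylation tested, Gadd45g was the only one with a called interaction over all 24 arrays. Of all genes tested, 4.78% had a positive and 3.36% a negative call, so 1 call in 11 is near the overall share. Dnmt3a had -0.78 (95% interval -1.43 to -0.13, adjusted p = 0.139), and on slide 2 alone it was called (-0.73, adjusted p = 0.0107). The interaction was -0.30 for Dnmt3b (adjusted p = 0.198) and -0.04 for Dnmt1 (adjusted p = 0.903).

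Opposite pretreatment effects, in which MM against SM and MS against SS were both called with opposite signs, were found in 11 probes, Ttr among them. Cldn11, the claudin of myelin, ranged from 9.20 to 9.84 in MM, 9.30 to 9.62 in MS and 8.66 to 9.31 in SM, and was 9.91, 9.50, 9.83 and 10.05 in SS. It rose by 0.48 in MM against SM (adjusted p = 0.0305) and fell by 0.36 in MS against SS (adjusted p = 0.0427). Sat1, which breaks down polyamines, ranged from 9.56 to 9.98 in MM, 9.71 to 10.12 in MS and 9.86 to 10.25 in SM, and was 9.75, 9.30, 9.37 and 9.43 in SS. It fell by 0.35 in MM against SM (adjusted p = 0.0422) and rose by 0.46 in MS against SS (adjusted p = 0.00118). SM held the lowest Cldn11 and the highest Sat1, and the groups overlapped in both. Kntc1, a kinetochore protein, had an interaction of -0.74 (adjusted p = 6.33e-04).

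Among receptors of the main transmitters, 5 of 18 glutamate and GABA receptor genes had a negative interaction and 1 a positive one. The shares over all genes tested were 3.36% and 4.78%. With median scaling, and likewise in the series matrix values, 1 of the 18 was negative and none positive. Grik1, a kainate receptor subunit, averaged 6.90 ± 0.18 in MM, 7.04 ± 0.20 in MS, 6.87 ± 0.23 in SM and 5.99 ± 0.21 in SS (interaction -1.02, adjusted p = 1.89e-04). The GABA receptor subunit Gabrb1 had -0.58 and Gabrd 0.62, both SS apart. Of 28 neuropeptide precursors 4 were positive and 5 negative, with median scaling 2 and 4, and in the series matrix values 1 and 5. Vgf, a precursor induced by neurotrophins, averaged 6.61 ± 0.22 in MM, 6.64 ± 0.13 in MS, 6.98 ± 0.22 in SM and 7.82 ± 0.19 in SS (interaction 0.80, adjusted p = 0.00156).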

How the data were processed

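RNA of 24 NAc samples was hybridised to 1-colour Illumina BeadChips on 2 slides, and groups were taken from the deposited labels. The authors made the intensity values with BeadStudio (version not given), with background subtracted on each array and no scaling between arrays. The deposited detection score is 1 minus a p-value, and its order did not follow the intensities (Spearman -0.00699 to 2.47e-04 per array), so the scores were given back by rank within each array, equal intensities sharing their mean. The deposited log2 values of the series matrix are the log2 of the intensities, with 1 as the lowest, less the median of each probe over all arrays.

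Intensities were processed with neqc (limma 3.58.1 in R 4.3.3; offset 16). A probe was kept if 4 or more arrays had a detection p under 0.05 for it, and the kept probes were fitted with limma (lmFit, contrasts.fit, eBayes), 1 mean per group over 24 arrays, two-sided, with Benjamini-Hochberg adjustment over 12951 probes. The members and gene lists were chosen with earlier results of these data known. Of all probes 13793 carry 1 gene symbol, and the brightest tested probe stands for a gene. Named were Crh, Avp, Cartpt and the genes of their receptors, CREB and DNA methylation, the 12 largest interactions each way, the 8 largest of each shape and, from every list, the 4 members whose interaction p was smallest. Where a gene was named after its values were seen, the text says so. A fold against a group in which no array detected the gene is a lower bound, set against the lowest signal among detected probes.

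On simulated data for the interaction over 22523 probes, 28 of 50 probes changed 1.5-fold in MM and 46 of 50 changed 2-fold were called, and 24 and 47 of 50 of those changed in SS, with 17 calls among 20146 unchanged probes. Only brighter probes were changed, noise was drawn independently for each probe, and more probes passed the filter than in the data. No outlying arrays or shared shifts were simulated. The rates therefore do not carry over to dim genes such as Crh, Sostdc1 and F5 or to outlying arrays. The number of arrays limits the precision. Promoters are from RefSeq (GRCr8). Figures were drawn with matplotlib 3.10.9. The sample numbers run over all groups and pair nothing.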

Additional observations from a re-analysis of the deposited data

Results flagged for a closer look

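The challenge effect differed between METH-pretreated and saline-pretreated rats, by the test of the interaction itself, for 992 probes. Among the genes given by array, the interaction was -2.81 for Cartpt, -2.63 for Nmb, -1.62 for Hap1, -1.54 for Hfm1, -1.43 for Calb2 and -1.36 for Nnat, all lower in SS than in SM. It was 2.42 for Nmu, 1.95 for Sema7a, 1.70 for Gfap, 1.67 for Cck, 1.61 for Ace and 1.50 for Cryab, which were higher in SS than in SM. It was 7.20 for Ttr, 2.21 for Sostdc1, 1.99 for F5 and -0.74 for Smoc2, in which MM departed from MS. Sostdc1 and F5 passed the filter on dim probes only through MM, where they are high. Their values are against groups near background, and their calls were lost in 5 and 27 of 38 alternatives. The interaction was 1.46 for Cdr2, 1.37 for Acer2, 1.12 for Klf10 and 0.80 for Klf9, in which the challenge effects ran in opposite directions. It was 0.75 for Gadd45g and 0.52 for Blnk, which were lowest in MS, and 0.84 for Cldn11 and -0.81 for Sat1, with opposite pretreatment effects.

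Single arrays lay far from their group in 5 of 108 groups of values examined, by the gap to the nearest array as a share of the range of the group, which chance alone gives in about 1 group in 20. SM sample 11 held 6.08 for Nmb, against 7.29 to 7.88 in the other SM arrays. SM sample 14 held 7.10 for Ttr, against 4.52 to 5.48. MS sample 7 held 6.75 for Nmu, against 6.24 to 6.35, and 11.2 for Gfap, against 10.46 to 10.70. MS sample 3 held 7.02 for Hfm1, against 5.58 to 6.18.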

How the results depend on the processing

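Counts of probes past the threshold moved with the scaling, the slides and single arrays, and the cause was not tested. The slide fits hold fewer samples, as does the fit without MM samples 6, 13, 18 and 24, which by itself can lower a count. Leaving out MM samples 6, 13, 18 and 24 was chosen after seeing the data. The interaction count of 992 was 536 with median scaling, 159 in the series matrix values, 19 on slide 1 alone, 1580 with array weights, 2041 without samples 1, 3 and 11 and 564 without the 4 MM samples. The 170 over 1.8-fold were 402 with no background correction, 71 with an offset of 50, 452 in the series matrix values and 281 on slide 2 alone.

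In the same order (median scaling, series matrix values, slide 1 alone), the 1769 calls of SM against SS became 1069, 527 and 163, and 3499 without samples 1, 3 and 11. The 2334 of MS against SS became 1522, 736 and 442. The 2911 of MM against SS became 927 in the series matrix values, 521 on slide 1 alone and 1675 without the 4 MM samples. In the order median scaling, series matrix values, slide 1 alone, slide 2 alone, array weights, samples 1, 3 and 11 left out and 4 MM samples left out, the 146 of MM against MS became 52, 8, 0, 32, 603, 353 and 17. The 166 of MM against SM became 33, 10, 0, 32, 441, 282 and 39, and 75 with no background correction and 93 with no filter. The 83 of SM against MS became 39, 18, 0, 29, 161, 143 and 54. The 0 counts are from limma.

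In that order without slide 2, the 599 SS apart probes became 357, 123, 17, 901, 1234 and 322. The 4 MM apart probes became 2, 2, 0 and 2 on the first 4 settings, 10 with array weights, 13 without samples 1, 3 and 11, 8 with the shape set at an adjusted p of 0.10 and 7 from the group means. The 12 opposite challenge probes became 0, 0, 0, 3, 51, 22 and 2 in the full order, 6 with no filter, 33 with the shape set at 0.10 and 66 from the group means.

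Leaving out 1 array gave 797 to 1395 interaction calls, 156 to 237 over 1.8-fold, 1208 to 2403 for SM against SS, 73 to 239 for MM against MS, 1748 to 2700 for MS against SS, 67 to 228 for MM against SM, 2315 to 3295 for MM against SS and 50 to 101 for SM against MS. It gave 481 to 867 SS apart, 3 to 8 MM apart and 3 to 17 opposite challenge probes.

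The Crh interaction of -0.20 was 0.013 on slide 1 alone. The Fos interaction of 0.03 was -0.10 with median scaling, -0.32 in the series matrix values, -0.29 on slide 1 alone, -0.16 without the 4 MM samples, and -0.087 to 0.158 with 1 array left out. The Dnmt1 interaction of -0.04 was 0.086 on slide 2 alone, 0.046 without samples 1, 3 and 11 and -0.138 to 0.10 with 1 array left out. Over 117 results of single genes and 4546 settings, 4164 kept direction and side of the threshold, 349 lost the call, 21 gained it and 12 changed sign. No paired analysis was possible because the sample numbers run over all groups and pair nothing. With 4 SS arrays, and signals near background for genes such as Crh and Sostdc1, small effects are limited by the number of arrays.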
